A study of Mus musculus with 5 samples.

Results

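Metabolite, lipid and orphan G protein-coupled receptors are described here in T cells sorted from the lamina propria, the layer of connective tissue under the epithelium, of the mouse colon. They were chosen by gene name, as every symbol that starts with Gpr, Ffar, Hcar, P2ry, Lpar or Ptger followed by a digit, or with Ptgdr, Ptgir, Ltb4r or Cysltr. This gave 106 of 24417 genes with a symbol. The name rule used no measured value, but it was chosen with earlier results of these data known. Some Gpr names belong to membrane proteins that are not thought to be surface receptors, and they are described last.

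RNA was sequenced from 3 libraries of Thy1.1+ Foxp3 reporter-null cells and from 2 libraries of Foxp3-DTR-GFP+ Treg cells. The label of reporter-null replicate 1 joins the numbers 1 and 4, so this library may hold 2 samples, which the labels do not explain. Both groups came from mice of the same genotype, which the labels write with a Foxp3DTR-GFP allele before the slash and a Thy1.1-STOP cassette between loxp sites, followed by GFP, after it. Regulatory T (Treg) cells owe their identity to Foxp3, a transcription factor. Its gene lies on the X chromosome, so in a female with a different mark on each copy a cell uses a single one of them. The sources used here give no age, sex, treatment or number of animals. Since no label ties the libraries to separate animals, p-values take in only how far these libraries differ, and that spread may be technical.

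G protein-coupled receptors cross the cell membrane repeatedly and pass the binding of a ligand outside the cell to G proteins inside it. Those described here bind small molecules that are plentiful in the gut wall: prostaglandins and leukotrienes made from arachidonic acid, lysophospholipids, oxysterols, short-chain fatty acids of bacterial fermentation, protons and nucleotides released by stressed cells. Many steer where T cells go, and receptors coupled to the G protein Gs raise cyclic AMP, which dampens T cell activation. For orphan receptors no ligand is generally agreed.

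Total counts per library were 17670420 to 22395169. Levels are counts scaled to a common library size (CPM, with TMM factors). Log2 fold changes have the Treg level taken from the reporter-null level and carry a standard error (SE). Adjusted p-values are from edgeR's quasi-likelihood test, with Benjamini-Hochberg adjustment over the 14164 genes tested. A gene was called when this p was under 0.05. Foxp3 had 75.7, 80.7 and 81.3 CPM in reporter-null cells and 764 and 770.0 CPM in Treg cells, and Thy1 had 269.9, 269.3 and 300.5 CPM in reporter-null cells and 18.8 and 21.4 CPM in Treg cells. Both differences run in the direction of the labels (-3.28, adjusted p = 5.45e-05, and 3.80, adjusted p = 8.48e-05). The 8 listed markers of CD4 T cells summed to 6648 to 7083 CPM in reporter-null and 6580 to 6740 CPM in Treg libraries, but Cd4 was called higher in reporter-null cells (1391 CPM on average in reporter-null and 701 CPM in Treg cells, adjusted p = 0.00796) and Cd2 lower (455 CPM in reporter-null and 1174 CPM in Treg cells, adjusted p = 0.00186). Of the CD8 markers, Cd8a was at most 0.54 CPM in any library. Cd8b1 had 5.42, 3.41 and 7.34 CPM in reporter-null and 11.6 and 11.1 CPM in Treg libraries (-1.08, adjusted p = 0.118), and DESeq2 called it lower. Reporter-null replicate 2 and Treg replicate 1 stood apart by transcripts of epithelium: 7 markers summed to 1004 CPM in reporter-null replicate 2, with 19.1 CPM in the lowest reporter-null library, and to 219.8 CPM in Treg replicate 1, with 41.7 CPM in the other. Of 6 genes listed for gamma-delta T cells 3 had a row of counts, and 2 were called higher in reporter-null cells, 5830411N06Rik and Blk. The 3 summed to 422 to 625 CPM in reporter-null and 10.77 to 10.97 CPM in Treg libraries. Most of the reporter-null sum was 5830411N06Rik, at 506 CPM on average, with Blk at 44.0 CPM. Sox13 had 0.05, 3.94 and 0.18 CPM in reporter-null and 1.79 and 0.14 CPM in Treg libraries (0.53, adjusted p = 0.912). Kit, 1 of 2 tested genes of mast cells, was called higher, and Cd79b, 1 of 5 of B and plasma cells, lower. The list of mast cells, basophils and eosinophils summed to 15.6 to 40.4 CPM in reporter-null and 8.58 to 8.83 CPM in Treg libraries. Most of this was Kit, at 26.2 CPM on average in reporter-null and 7.1 CPM in Treg cells. Cpa3, the other one tested, had 0.38, 0.86 and 0.58 CPM in reporter-null and 1.14 and 1.11 CPM in Treg libraries (-0.88, adjusted p = 0.516), and Fcer1a was at most 0.14 CPM. The B and plasma cell list summed to 375 to 839 CPM in reporter-null and 415 to 1375 CPM in Treg libraries. The macrophage and monocyte list summed to 14.8 to 70.8 CPM in reporter-null and 13.3 to 46.1 CPM in Treg libraries. Both lists were highest in reporter-null replicate 2 and Treg replicate 1, the libraries that stood apart by epithelial transcripts. The innate lymphoid cell list summed to 428 to 601 CPM in reporter-null and 351 to 384 CPM in Treg libraries. Of its 5 tested genes 1 was called higher, and the log2 fold change was positive in 2 and negative in 3. Some of these lists differed between the groups, and others, such as those of epithelium and of B and plasma cells, overlapped. Their part in the receptor differences below was not tested.

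Reporter-null cells carried more transcripts of Lpar3, Lpar6, Ptger4, Ffar2 and P2ry2, and fewer of Gpr83, Gpr18, Gpr146, Gpr160, Gpr55 and Gpr137b-ps, than Treg cells. Of the 106 members, 98 had a count in some library and 60 passed the filter on low counts. Of these 60, 5 were called higher and 6 lower in reporter-null cells, which is 18.3% of those tested. Over all tested genes 8.79% were called, 4.07% higher and 4.72% lower. In all 11 called members every library of a group lay beyond every library of the other. The calls were made on these same libraries, so this separation is no added evidence. Over the 60 tested members the groups did not overlap in 36, with reporter-null cells above in 19 and below in 17, and over all tested genes in 40.8%, with 20.3% above and 20.5% below. The median log2 fold change was 0.24 over the tested members and 0.02 over all tested genes. In sorted cells measured in bulk, fewer cells with a transcript and less of it per cell cannot be told apart.

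**Figure D1:**
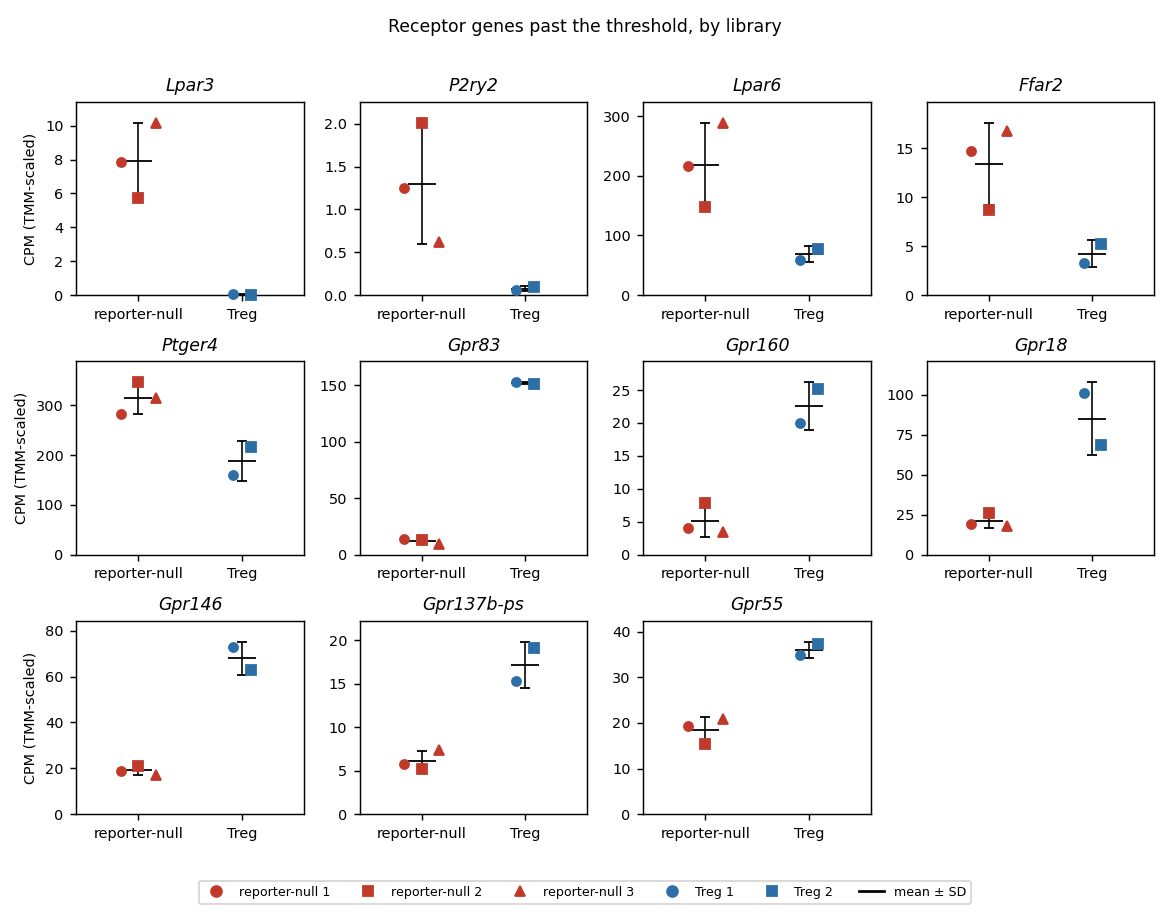
Level in CPM (TMM-scaled, linear axis from 0) of the 11 called members in each library, with reporter-null libraries in red on the left of a panel, Treg libraries in blue on the right, and black lines for mean ± SD (bars below 0 are cut off). In every panel the groups do not overlap, from Gpr83 at 9.66 to 14.1 CPM in reporter-null and 151 to 152 CPM in Treg libraries to Lpar3 at 5.76 to 10.2 CPM in reporter-null and at most 0.05 CPM in Treg libraries.

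The promoters of 4 called members are shown for the sequence context of the most lowered gene (Gpr83), of the member with the largest fold change (Lpar3), and of a lowered and a raised member whose window held a searched motif (Gpr146 and Ffar2). They are the 250 bases before the transcription start, from RefSeq on GRCm38.p6, written 5′ to 3′ on the strand of the gene, and the build behind the counts is not given in the sources used here. Capitals mark matches to TGTTTAC, a forkhead motif, AGGTCA, the core site of many nuclear receptors, TGANTCA, bound by AP-1, or TGACGTCA, the cyclic AMP response element, each read on both strands.
Gpr83, chr9:14859960-14860209, plus strand: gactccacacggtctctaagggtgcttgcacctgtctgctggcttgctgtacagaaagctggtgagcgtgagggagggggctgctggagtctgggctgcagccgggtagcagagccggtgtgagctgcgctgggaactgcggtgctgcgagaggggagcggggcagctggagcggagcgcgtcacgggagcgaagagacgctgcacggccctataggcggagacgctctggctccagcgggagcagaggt
Lpar3, chr3:146220711-146220960, plus strand: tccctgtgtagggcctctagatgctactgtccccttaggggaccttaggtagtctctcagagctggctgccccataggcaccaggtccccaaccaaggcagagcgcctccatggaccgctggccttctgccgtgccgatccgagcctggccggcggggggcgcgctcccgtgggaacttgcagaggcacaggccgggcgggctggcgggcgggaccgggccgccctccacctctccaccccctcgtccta
Gpr146, chr5:139389654-139389903, plus strand: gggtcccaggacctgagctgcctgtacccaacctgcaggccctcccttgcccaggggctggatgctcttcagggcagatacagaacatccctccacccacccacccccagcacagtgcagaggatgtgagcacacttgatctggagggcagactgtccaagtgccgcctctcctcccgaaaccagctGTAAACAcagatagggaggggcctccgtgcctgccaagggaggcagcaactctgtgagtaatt
Ffar2, chr7:30823776-30824025, minus strand: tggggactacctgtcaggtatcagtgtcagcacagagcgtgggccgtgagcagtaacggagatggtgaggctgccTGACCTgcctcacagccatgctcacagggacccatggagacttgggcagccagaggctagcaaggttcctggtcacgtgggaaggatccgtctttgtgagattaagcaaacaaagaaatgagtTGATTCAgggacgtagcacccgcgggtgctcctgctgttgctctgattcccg

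The table of RefSeq promoters held 78 of the 106 members with 105 windows, since a gene can have several starts. Gpr146 has 3 windows and Ffar2 has 4, and of each the one with the most matches to the searched motifs is shown. That of Gpr146 holds the forkhead letters 63 bases before its start. In that of Ffar2 the nuclear receptor site begins 175 and the AP-1 letters 52 bases before the start. Gpr83 and Lpar3 have a single window each, in which none of these letters stand. Guanine and cytosine made up 66.8% of the Gpr83 and 69.6% of the Lpar3 window, where the median of all 32851 windows was 52.4%. The forkhead letters were in 3 of the 105 member windows (2.86%) and in 3.17% of all windows, and the AP-1 letters in 7.62% and 6.75%. The nuclear receptor site was in 18 of the member windows (17.1%) and in 4607 of all 32851, and among called members P2ry2 held it as well, and the cyclic AMP response element in 1.9% and 1.55%. These are counts of letters and not of bound sites.

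Among prostanoid receptors Ptger4, the receptor through which prostaglandin E2 raises cyclic AMP, was called higher. Its level was 282, 346 and 315 CPM in reporter-null replicates 1, 2 and 3, and 160.2 and 216 CPM in Treg replicates 1 and 2. The reporter-null libraries were all above the Treg libraries (log2 fold change 0.74, SE 0.17, adjusted p = 0.0406). The call was lost without reporter-null replicate 1 (0.0968) or 3 (0.0746), Treg replicate 1 (0.264) or 2 (0.0718), and when Treg replicate 1 and reporter-null replicate 2 were both left out, where the log2 fold change was 0.47 (adjusted p = 0.157, over the alternatives 0.000383 to 0.264). Ptgir, the receptor for prostacyclin, also coupled to Gs, had 57.0, 27.5 and 71.3 CPM in reporter-null libraries and 7.22 and 19.5 CPM in Treg libraries. The groups did not overlap, but both varied widely, and Ptgir was not called (1.95, SE 0.65, adjusted p = 0.18). It passed by DESeq2 (0.00125) and with Treg replicate 1 and reporter-null replicate 2 both left out (5.22e-12), in a range up to 0.47.

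The other prostanoid receptors did not pass by edgeR with all libraries. Ptger2, a further prostaglandin E2 receptor that raises cyclic AMP, stood at 142 ± 16.7 CPM in reporter-null cells (SD, n = 3) and 119 ± 34.0 CPM in Treg cells (SD, n = 2), with overlapping groups (0.26, SE 0.20, adjusted p = 0.522). Ptger1, which couples to calcium, had 108.8 ± 17.4 CPM in reporter-null and 76.4 ± 3.56 CPM in Treg cells (0.51, SE 0.16, adjusted p = 0.11, over the alternatives 0.0241 to 0.444). It passed by DESeq2 and without reporter-null replicate 3. Exons of Ptger1 overlap those of another gene in the GENCODE annotation, and the counting is not stated to use strand, so its level is uncertain. Ptger3, which inhibits cyclic AMP formation, and Ptgdr2, the prostaglandin D2 receptor known as CRTH2, were at most 2.02 and 0.86 CPM in any library and were not called. Of the Ptgdr2 exon bases 39.0% overlap Ccdc86 on the opposite strand. All 6 tested prostanoid receptors had a positive log2 fold change. EdgeR and limma-voom called 1 of them, Ptger4, and DESeq2 called 3, Ptger4, Ptgir and Ptger1.

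Of 11 tested genes for making or removing prostanoids 1 was called (9.09%, beside 8.79% of all tested genes), and it was lower. It was Hpgds, the prostaglandin D2 synthase of blood cells, with 4.44, 3.22 and 5.47 CPM in reporter-null libraries and 14.4 and 12.3 CPM in Treg libraries (-1.61, SE 0.29, adjusted p = 0.0197). The list's median was -0.41, where that of all tested genes was 0.02. The cyclooxygenase genes Ptgs1 (-1.63, adjusted p = 0.17) and Ptgs2 (-0.73, adjusted p = 0.747) were not called.

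No leukotriene receptor was called by edgeR or limma-voom, but 2 of the 3 tested had an unadjusted p under 0.05 and DESeq2 called the same 2, Cysltr1 and Cysltr2. Ltb4r1, the high-affinity receptor for leukotriene B4 that draws activated T cells into tissue, was at 158 ± 18.8 CPM in reporter-null (SD, n = 3) and 132 ± 6.32 CPM in Treg cells (SD, n = 2), and differed by 0.26 (log2, SE 0.13, adjusted p = 0.327). The receptors for cysteinyl leukotrienes had values on opposite sides. Cysltr1 had 51.3, 25.6 and 73.3 CPM in reporter-null libraries and 15.4 and 14.3 CPM in Treg libraries (1.75, SE 0.47, adjusted p = 0.104). It passed without reporter-null replicate 2 (2.06, adjusted p = 4.17e-05) and by DESeq2 (adjusted p = 0.000325), with a range of 5.6e-17 to 0.413. Cysltr2 had 30.8, 22.7 and 45.5 CPM in reporter-null libraries and 47.8 and 79.9 CPM in Treg libraries (-0.95, SE 0.36, adjusted p = 0.204, over the alternatives 4.35e-06 to 0.587). Each gene's groups were separate, and the difference between the 2 genes was not tested. Of 3 tested genes for leukotriene synthesis 0 were called by edgeR, DESeq2 or limma-voom, and 0 had an unadjusted p under 0.05.

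Receptors for lysophosphatidic acid, a growth-promoting lipid made outside cells by autotaxin, included Lpar3 and Lpar6, both called higher. Lpar3 had 145, 120 and 229 counts in reporter-null replicates 1, 2 and 3, and 1 and 0 counts in Treg replicates 1 and 2. It was close to absent from both Treg libraries and present in every reporter-null library at 7.85, 5.76 and 10.2 CPM. Scaled for depth, the summed counts stood in a ratio of 320 (57.2 to 12700, a 95% interval for counting). It was 147 (26.3 to 5830) when Treg replicate 2 was dropped. With Treg replicate 1, the holder of the single count, dropped instead, Lpar3 was at least 57.7-fold higher, with 3 counts over the Treg group as the limit. These intervals and limits allow for counting error alone, since amplified reads are not independent molecules. The fitted log2 fold change, which for so few counts depends on the prior count of the fit, was 7.98 (SE 0.85, adjusted p = 0.00276), and the call was kept whichever library was left out (1.92e-05 to 0.0209).

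Lpar6, another receptor for this lipid, had 216, 148 and 289 CPM in reporter-null libraries and 59.6 and 78.0 CPM in Treg libraries. The reporter-null libraries differed among themselves by more than the lowest of them lay above the Treg libraries (1.66, SE 0.31, adjusted p = 0.033). The call was lost without reporter-null replicate 1 (0.112), Treg replicate 1 (0.225) or Treg replicate 2 (0.135), with all alternatives spanning 5.16e-11 to 0.225. Lpar6 lies inside the retinoblastoma gene Rb1 on the opposite strand and shares 7.6% of its exon bases with it. Rb1 was called higher as well, at 396 CPM on average in reporter-null and 163 CPM in Treg cells (1.28, adjusted p = 0.0345). Whether unspliced Rb1 reads reached the Lpar6 count was not tested.

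The other receptors of this lipid were low or level. Lpar5 had 9.79 ± 0.97 CPM in reporter-null (SD, n = 3) and 10.4 ± 2.31 CPM in Treg cells (SD, n = 2), with overlapping groups (-0.09, SE 0.24, adjusted p = 0.872). Lpar1 and Lpar2 were at most 3.07 and 1.76 CPM and were not called, and Lpar4 had 0 counts in reporter-null libraries and 8 counts in Treg replicate 2. The class as a whole summed to 167 to 310 CPM in reporter-null and 70.5 to 92.9 CPM in Treg libraries, most of it Lpar6. Among 9 tested genes that make or break down lysophospholipids 0 were called by edgeR, DESeq2 or limma-voom, and 0 had an unadjusted p under 0.05 by edgeR. Enpp2, which encodes autotaxin, was at most 1.63 CPM in any library.

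**Figure D2:**
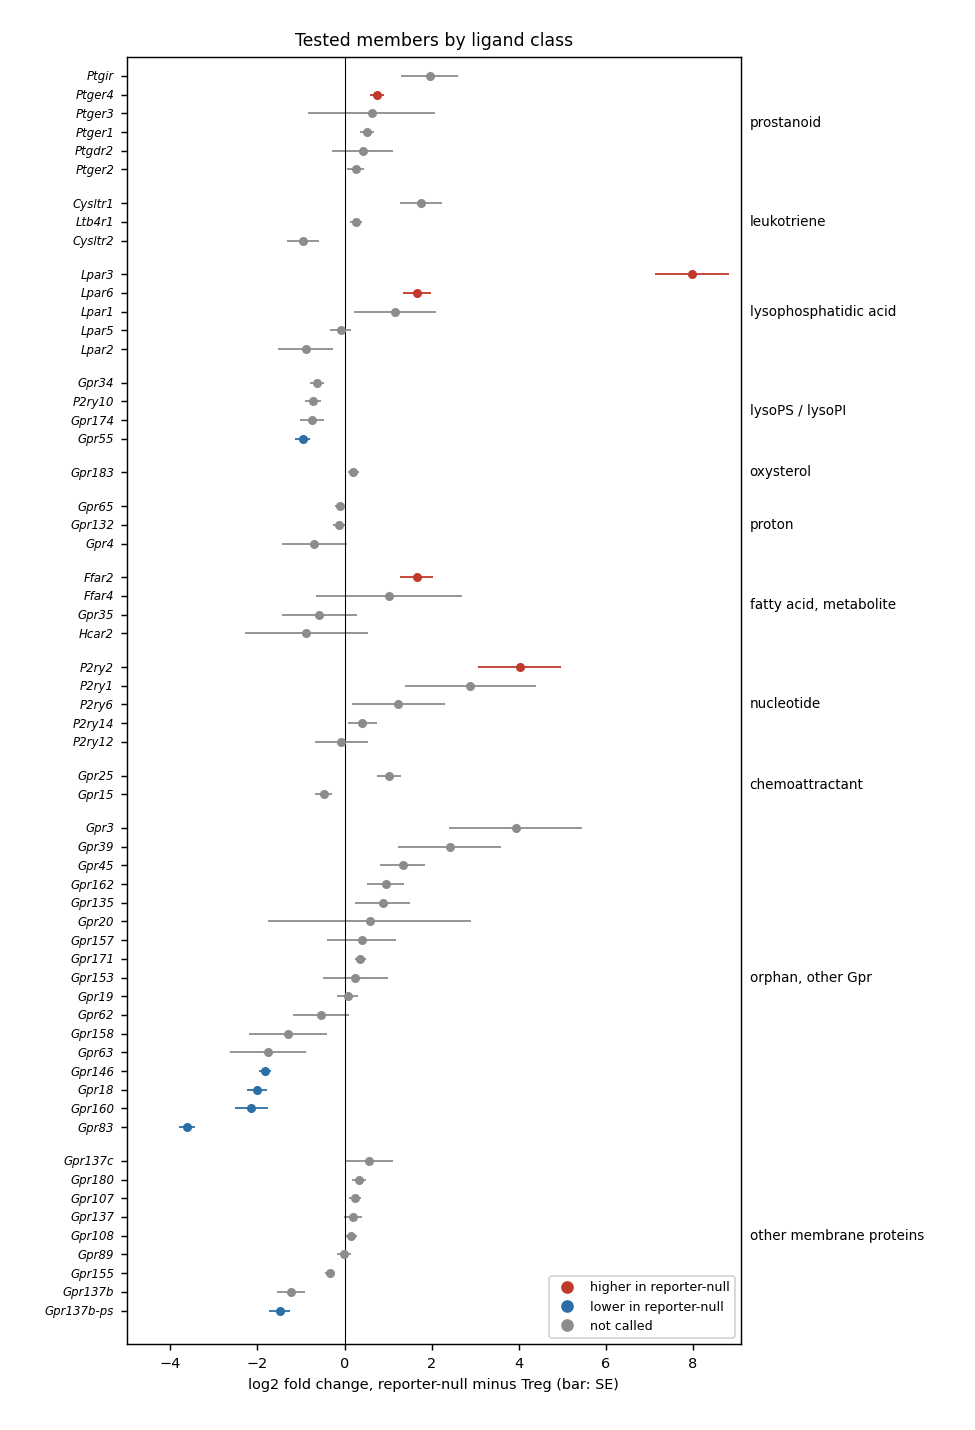
Log2 fold change, reporter-null minus Treg, of the tested members reported here (points) with its SE (bars), grouped by ligand class, with called members in red (higher in reporter-null cells) or blue (lower) and the others in grey. All 4 receptors for lysophosphatidylserine and lysophosphatidylinositol lie left of 0 and all 6 prostanoid receptors right of it, with 1 called in each class, and Lpar3 stands farthest out at 7.98.

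Receptors for lysophosphatidylserine and lysophosphatidylinositol, lipids with a serine or inositol head group, all had lower values in reporter-null cells. Gpr55, a receptor for lysophosphatidylinositol, was the called member, with 19.3, 15.4 and 20.8 CPM in reporter-null libraries and 34.8 and 37.3 CPM in Treg libraries (-0.96, SE 0.17, adjusted p = 0.0187). Within each group its libraries were close together. The call was lost without reporter-null replicate 1 (0.0841), Treg replicate 1 (0.114) or Treg replicate 2 (0.124), with all alternatives spanning 4.14e-05 to 0.136. The 3 lysophosphatidylserine receptors missed the threshold by edgeR with separate groups, and DESeq2 called 2 of them lower, P2ry10 and Gpr34. P2ry10 had 114, 136 and 143 CPM in reporter-null libraries and 258 and 177 CPM in Treg libraries (-0.73, SE 0.18, adjusted p = 0.0589, over the alternatives 0.00424 to 0.357). Gpr34 had 19.2, 24.7 and 21.0 CPM in reporter-null libraries and 34.5 and 32.2 CPM in Treg libraries (-0.63, SE 0.16, adjusted p = 0.0633, over the alternatives 0.0128 to 0.305). Gpr174, which restrains Treg cells in mice, had 31.6, 27.4 and 50.0 CPM in reporter-null libraries and 55.5 and 66.5 CPM in Treg libraries (-0.75, SE 0.27, adjusted p = 0.165, over the alternatives 0.00683 to 0.485). The 4 summed to 185 to 234 CPM in reporter-null and 313 to 382 CPM in Treg libraries.

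Gpr183, known as EBI2, guides cells towards oxysterols and was abundant in both groups. It had 376, 425 and 402 CPM in reporter-null libraries and 379 and 322 CPM in Treg libraries, with overlapping groups (0.20, SE 0.13, adjusted p = 0.431). Its neighbour on chromosome 14, Gpr18, was called lower. Gpr18, needed in mice for a normal number of T cells in the gut epithelium, had 19.3, 26.1 and 17.7 CPM in reporter-null libraries and 101.3 and 68.9 CPM in Treg libraries (-2.01, SE 0.23, adjusted p = 0.00406), a call that was kept whichever library was left out (4.19e-05 to 0.0399). Both genes lie inside Ubac2 on its opposite strand, with no shared exon bases, and Ubac2 differed by -0.16 (adjusted p = 0.532). Of 2 tested genes for oxysterol synthesis or breakdown 0 were called by edgeR, DESeq2 or limma-voom, and 0 had an unadjusted p under 0.05.

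Receptors that sense acid outside the cell were measured as well. Gpr65, which raises cyclic AMP at low pH, stood at 88.9 ± 3.06 CPM in reporter-null (SD, n = 3) and 95.97 ± 3.96 CPM in Treg cells (SD, n = 2), and differed by -0.11 (log2, SE 0.11, adjusted p = 0.622). Gpr132, a relative that also answers lysophospholipids and oxidised fatty acids, was at 238 ± 23.0 CPM in reporter-null and 261 ± 35.7 CPM in Treg cells (-0.13, SE 0.14, adjusted p = 0.664). Gpr4, another acid sensor, was at most 1.47 CPM (adjusted p = 0.664). Gpr65, Gpr132 and Gpr4 were not called.

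Ffar2, the receptor for acetate and propionate from bacterial fermentation, was called higher. It had 14.7, 8.69 and 16.8 CPM in reporter-null libraries and 3.26 and 5.23 CPM in Treg libraries (1.66, SE 0.38, adjusted p = 0.0428). All reporter-null libraries were above both Treg libraries. The call was lost by limma-voom (0.0804) and without reporter-null replicate 1 (0.166) or 3 (0.102) or Treg replicate 1 (0.268) or 2 (0.116), with all alternatives spanning 6.66e-06 to 0.273. Its neighbour Ffar3, another receptor for short-chain fatty acids, was too low to be tested, with 8, 6 and 4 counts in reporter-null libraries and 0 counts in both Treg libraries, so with 3 counts taken for the Treg group Ffar3 was at least 3.89-fold higher. That bound was 1.79 with Treg replicate 1 alone for the Treg group and 2.1 with Treg replicate 2 alone. Of 7 tested genes for the transport and use of short fatty acids and lactate 1 was called (14.3%, beside 8.79% of all tested genes). It was Slc16a3, the lactate exporter of glycolytic cells, with 33.8, 29.3 and 16.3 CPM in reporter-null libraries and 89.2 and 97.7 CPM in Treg libraries (-1.82, SE 0.30, adjusted p = 0.0214).

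The remaining metabolite receptors were low, and those tested were highest in reporter-null replicate 2. Ffar4, a receptor for long-chain fatty acids, had 0.7, 5.42 and 0.58 CPM in reporter-null replicates 1, 2 and 3 and 2.17 and 0.05 CPM in Treg replicates 1 and 2. Gpr35, linked to kynurenic acid, had 0.98, 3.5 and 0.45 CPM in reporter-null libraries and 2.99 and 1.94 CPM in Treg libraries. Hcar2, the receptor for niacin and butyrate, had 0, 0.72 and 0.09 CPM in reporter-null libraries. In Treg libraries it had 0.54 and 0.46 CPM, from 10 counts in each. Gpr35 and Hcar2 were thus higher in both Treg libraries than in reporter-null replicates 1 and 3. In reporter-null replicate 2 Ffar4, Gpr35, Hcar2, P2ry6, Ptger3 and Gpr20 were more than 3-fold above the other reporter-null libraries. By CPM all 6 were higher in Treg replicate 1 than in replicate 2. These are also the libraries with the most epithelial transcripts, at 1004 and 219.8 CPM. The lists of macrophages and monocytes (70.8 and 46.1 CPM) and of B and plasma cells (839 and 1375 CPM) were highest in the same libraries. The receptor pattern, picked out after the values were seen, was found in 10.0% of tested members and 5.23% of all tested genes. The part of RNA from any of these cell types in the pattern was not tested. None of the 6 was called, with adjusted p of 0.578 to 0.925.

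**Figure D3:**
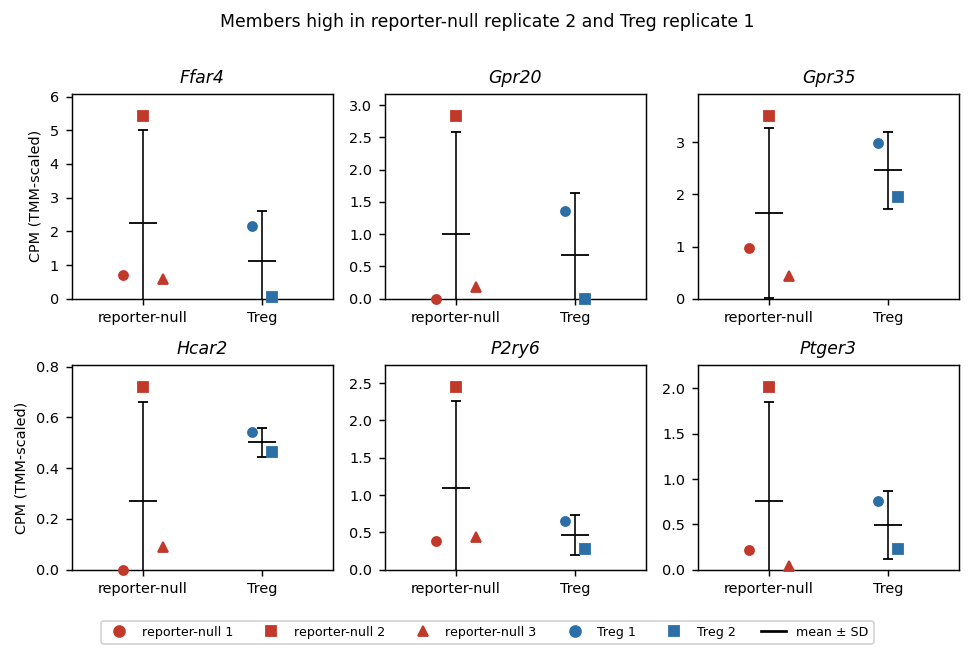
Level in CPM (TMM-scaled, linear axis from 0) of the 6 members that were over 3-fold higher in reporter-null replicate 2 than in the other reporter-null libraries and higher in Treg replicate 1, with reporter-null libraries in red on the left, Treg libraries in blue on the right and black lines for mean ± SD (bars below 0 are cut off). The square of reporter-null replicate 2 is the highest point of each panel, such as 5.42 CPM for Ffar4, and the groups overlap in each.

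Among receptors for nucleotides P2ry2, which binds ATP and UTP, was called higher at a low level. It had 23, 42 and 14 counts in reporter-null libraries and 1 and 2 counts in Treg libraries, in a depth-scaled ratio of 17.1 (5.63 to 84.5). Every reporter-null library held at least 14 counts and neither Treg library more than 2. The adjusted p was 0.0494, and the call was lost by limma-voom (0.19), without reporter-null replicate 1 (0.157), Treg replicate 1 (0.282) or Treg replicate 2 (0.196), and with Treg replicate 1 and reporter-null replicate 2 both left out (0.0892), in a range of 0.00775 to 0.282. The ratio was 23.6 (4.11 to 942) without Treg replicate 2 and 12.1 (3.82 to 61.2) without reporter-null replicate 2. The ADP receptors were mixed. P2ry1, with 23.1% of its exon bases overlapping Gm37035 on the opposite strand, was not called (adjusted p = 0.351). It had 60, 122 and 92 counts in reporter-null libraries and 22 and 0 counts in Treg libraries. Without Treg replicate 1 it passed (0.0267, over the alternatives 1.11e-10 to 0.532) and was at least 32.0-fold higher by the limit of 3 counts.

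P2ry13, an ADP receptor, had 6, 10 and 6 counts in reporter-null libraries and 0 counts in both Treg libraries and was not tested, a difference of at least 4.75-fold, or at least 2.57-fold without Treg replicate 1 and 2.19-fold without Treg replicate 2. P2ry12, also for ADP, was level at 1.23 ± 0.45 CPM in reporter-null and 1.3 ± 0.39 CPM in Treg cells (adjusted p = 0.964). P2ry14, the receptor for UDP-glucose, was at 10.98 ± 3.65 CPM in reporter-null and 8.29 ± 1.33 CPM in Treg cells (SD, n = 3 and n = 2), and its groups overlapped (0.41, SE 0.34, adjusted p = 0.558). P2ry12, P2ry13, P2ry14 and Gpr171 all lie inside Med12l on its opposite strand, and Med12l differed by 0.35 (adjusted p = 0.184). Of 10 tested genes that release, break down or sense nucleotides and adenosine edgeR called 1, limma-voom 2 and DESeq2 4. By edgeR that is 10%, beside 8.79% of all tested genes, and 4 of the 10 had an unadjusted p under 0.05. The gene called by edgeR was Entpd1, which encodes the ATP-degrading enzyme CD39, with 68.5, 76.6 and 71.6 CPM in reporter-null libraries and 101.3 and 105.2 CPM in Treg libraries (-0.51, SE 0.11, adjusted p = 0.0335). Limma-voom and DESeq2 also called Adora2a lower, and DESeq2 called Panx1 lower and Enpp3 higher.

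Neither chemoattractant receptor that was tested passed by edgeR or limma-voom, though both had an unadjusted p under 0.05. Gpr15, which brings T cells to the colon, was among the abundant members. It had 103.2, 90.0 and 138 CPM in reporter-null libraries and 146 and 162 CPM in Treg libraries. All reporter-null values were below the Treg values, the highest by a small margin, and the gene was not called (-0.48, SE 0.19, adjusted p = 0.191). It passed without reporter-null replicate 3 (-0.68, adjusted p = 0.0305, over the alternatives 0.0305 to 0.519). In the annotation 12.5% of its exon bases overlap Cpox on the opposite strand, which differed by 0.18 (adjusted p = 0.559). Gpr25, a relative of Gpr15, had 20.6, 20.0 and 13.3 CPM in reporter-null libraries and 7.38 and 10.3 CPM in Treg libraries (1.02, SE 0.27, adjusted p = 0.0707). It passed without reporter-null replicate 2 (0.0466) or 3 (0.0396) and by DESeq2 (0.0128), within a range up to 0.357. In the annotation 41.6% of the Gpr25 exon bases overlap Gm26781 on the opposite strand.

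Of 17 tested orphan and other Gpr receptors 4 were called (23.5%, beside 8.79% of all tested genes), all lower. Gpr83, long known as a gene of Treg cells, was the most lowered member, with 14.1, 13.3 and 9.66 CPM in reporter-null libraries and 152 and 151 CPM in Treg libraries (-3.62, SE 0.18, adjusted p = 0.000207). It passed the threshold in all 14 alternatives (1.31e-67 to 0.0419), the only called member that did. Gpr146, which acts in liver lipid metabolism in mice, had 18.8, 21.2 and 17.3 CPM in reporter-null libraries and 73.1 and 62.7 CPM in Treg libraries (-1.83, SE 0.14, adjusted p = 0.000991). It was kept whichever library was left out (2.07e-05 to 0.0194). Gpr146 lies inside 3110082I17Rik on the opposite strand with no shared exon bases, and that gene was lower too, at 27.6 CPM on average in reporter-null and 75.4 CPM in Treg cells (-1.45, adjusted p = 0.000991).

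Gpr160, an orphan receptor, had 4.06, 7.87 and 3.43 CPM in reporter-null libraries and 20.0 and 25.2 CPM in Treg libraries (-2.14, SE 0.37, adjusted p = 0.0184). The groups were well apart, but the call was lost without reporter-null replicate 1 (0.0879), Treg replicate 1 (0.105) or Treg replicate 2 (0.132), with all alternatives spanning 4.57e-19 to 0.132. Gpr171, reported to restrain T cell activation, was one of the abundant members at 206 ± 23.8 CPM in reporter-null and 160.1 ± 6.84 CPM in Treg cells (0.36, SE 0.13, adjusted p = 0.16, over the alternatives 0.0446 to 0.458). Gpr3, which raises cyclic AMP without a ligand, had 21, 3 and 30 counts in reporter-null libraries and 2 and 0 counts in Treg libraries, a ratio of 17.5 (4.62 to 148) that did not pass (adjusted p = 0.189). Without reporter-null replicate 2 it passed (0.0204, over the alternatives 0.00132 to 0.473) with a ratio of 24.9 (6.56 to 212), and the ratio was 8.05 (2.12 to 68.2) without Treg replicate 2 and at least 6.3 without Treg replicate 1. Gpr45 differed by 1.33 (SE 0.51, adjusted p = 0.181) and passed without reporter-null replicate 2 (0.0167, over the alternatives 0.0119 to 0.577). The other 10 tested receptors of the class were at most 8.14 CPM in any library and were not called, and for Gpr39, which senses zinc, 39.9% of the exon bases overlap Lypd1 on the opposite strand.

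The 9 tested genes whose Gpr name stands for proteins of internal membranes or of no settled receptor function included 1 that edgeR called. This was Gpr137b-ps, a pseudogene. DESeq2 called 3, Gpr137b-ps, Gpr137b and Gpr155, and limma-voom the first 2 of these. Gpr107 and Gpr108, proteins of the Golgi, had log2 fold changes of 0.23 (adjusted p = 0.394) and 0.15 (adjusted p = 0.611), at 93.2 ± 9.79 and 138 ± 14.2 CPM in reporter-null and 79.4 ± 8.23 and 125 ± 14.01 CPM in Treg cells. Gpr155, a lysosomal sensor of cholesterol, stood at 48.2 ± 1.77 CPM in reporter-null and 61.1 ± 0.98 CPM in Treg cells (-0.34, SE 0.11, adjusted p = 0.111, over the alternatives 0.0348 to 0.446). Gpr89 (-0.01, adjusted p = 0.979), Gpr137 (0.19, adjusted p = 0.678), Gpr137c (0.57, adjusted p = 0.614) and Gpr180 (0.33, adjusted p = 0.281) were not called either. The pseudogene Gpr137b-ps was called lower, with 5.74, 5.18 and 7.39 CPM in reporter-null libraries and 15.3 and 19.1 CPM in Treg libraries (-1.49, SE 0.24, adjusted p = 0.0133). That call was lost without reporter-null replicate 1 (0.0807), Treg replicate 1 (0.0722) or Treg replicate 2 (0.12), with all alternatives spanning 2.57e-06 to 0.127. Its parent gene Gpr137b, for a lysosomal membrane protein, had 2.49, 3.22 and 3.25 CPM in reporter-null and 7.28 and 6.75 CPM in Treg libraries (-1.23, SE 0.32, adjusted p = 0.0638, over the alternatives 0.00424 to 0.304). It passed by DESeq2 (0.00424) and limma-voom (0.0437), without reporter-null replicate 2 (0.0329) and with Treg replicate 1 left out as well (0.0246). Reads of such near-identical copies may be split between them, so the value of each is uncertain.

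Levels can be set side by side only per length, and CPM per kilobase of annotated exon was used for this. Gpr183 ranked highest in both groups, with 139 ± 8.47 CPM per kb in reporter-null (SD, n = 3) and 121 ± 14.01 CPM per kb in Treg cells (SD, n = 2). In reporter-null cells Ltb4r1 (114 ± 13.5), Gpr171 (92.5 ± 10.7), Gpr132 (87.8 ± 8.49) and Gpr15 (67.5 ± 15.3 CPM per kb) followed. In Treg cells Gpr132 (96.1 ± 13.1), Ltb4r1 (95.0 ± 4.54), Gpr15 (94.3 ± 6.87) and P2ry10 (72.8 ± 19.2 CPM per kb) followed. Among these leading genes the ranges of mean ± SD of neighbours in the order overlapped, except those of Gpr183 and Ltb4r1 in reporter-null cells. Gpr18 was at 14.1 ± 2.98 CPM per kb in reporter-null and 56.8 ± 15.3 CPM per kb in Treg cells, and Lpar6 at 40.3 ± 13.04 CPM per kb in reporter-null and 12.7 ± 2.41 CPM per kb in Treg cells.

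**Figure D4:**
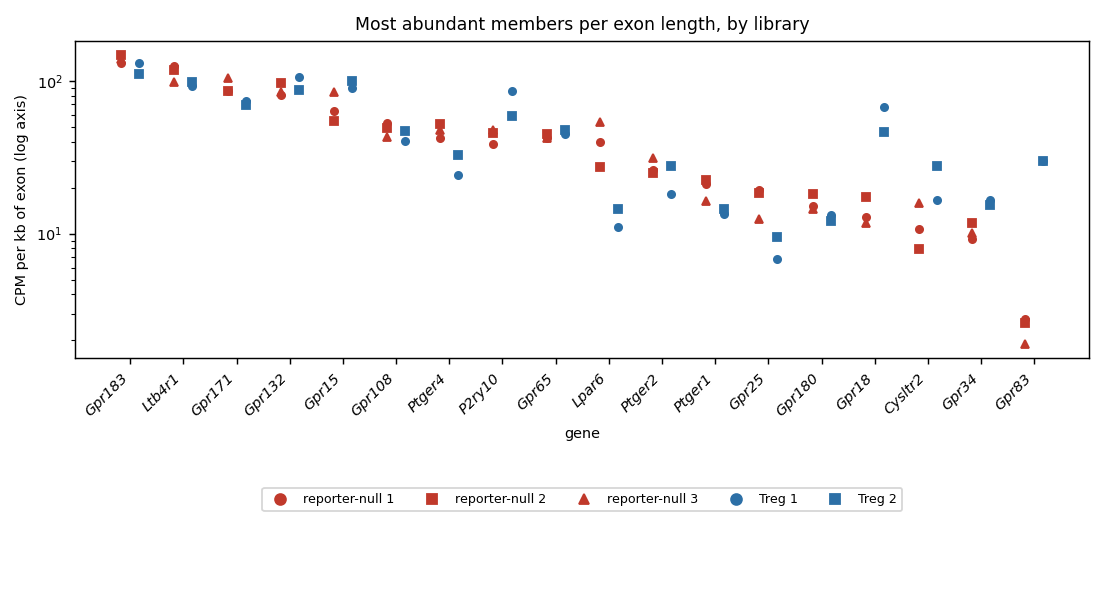
Level per exon length (CPM per kb, log axis) in each library of members among the 15 highest in either group that are reported here, ordered by their mean in reporter-null cells, with reporter-null libraries in red on the left of each gene and Treg libraries in blue on the right. Gpr183, at 139 CPM per kb on average in reporter-null and 121 CPM per kb in Treg cells, leads in both groups, and Gpr83, Gpr18 and Lpar6 show the widest gaps between the groups.

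Other receptors for lipids and metabolites, outside the name rule, included several that were lower. Of 12 tested 4 were called (33.3%, beside 8.79% of all tested genes), all lower. Cnr2, the cannabinoid receptor of immune cells, had 0.32, 1.15 and 0.71 CPM in reporter-null libraries and 12.9 and 12.5 CPM in Treg libraries (-4.11, SE 0.51, adjusted p = 0.00493). Tbxa2r, the thromboxane receptor, had 8.56, 4.85 and 6.59 CPM in reporter-null libraries and 33.9 and 35.3 CPM in Treg libraries (-2.38, SE 0.25, adjusted p = 0.0027). S1pr1, through which T cells leave tissues towards sphingosine 1-phosphate, had 103.3, 102.4 and 84.6 CPM in reporter-null libraries and 207 and 199 CPM in Treg libraries (-1.07, SE 0.13, adjusted p = 0.00416), and S1pr4 differed by -0.57 (SE 0.13, adjusted p = 0.0423). The list's median was -0.16, beside 0.02 over all tested genes. Of 10 tested genes for arrestins, receptor kinases and RGS proteins, which end receptor signals, 4 were called higher and 2 lower. That is 60%, beside 8.79% of all tested genes, and the median was -0.05, beside 0.02. The higher ones were Arrb1 (1.06, adjusted p = 0.0205), Grk3 (3.09, adjusted p = 0.0157), Grk5 (1.34, adjusted p = 0.0225) and Rgs1 (0.67, adjusted p = 0.0469). The lower ones were Rgs2 (-1.04, adjusted p = 0.00331) and Rgs10 (-1.07, adjusted p = 0.00787).

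Members also differed in how firmly their calls stood. Of the 11 called members 4 kept their call whichever single library was left out: Gpr83, Gpr18, Gpr146 and Lpar3. The other 7 lost it at least in the fit without reporter-null replicate 1 and in both fits with 1 Treg library. In those fits 2.27% to 3.32% of all tested genes were called. Without reporter-null replicate 2, 18 members were called, 9 higher and 9 lower, and 2035 of all 13589 tested genes. With Treg replicate 1 and reporter-null replicate 2 both left out the count was also 18, with 8 higher and 10 lower, 9 of them among the 11, and 2152 of all 14175 tested genes. All 11 kept their direction in all 14 alternatives.

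**Figure D5:**
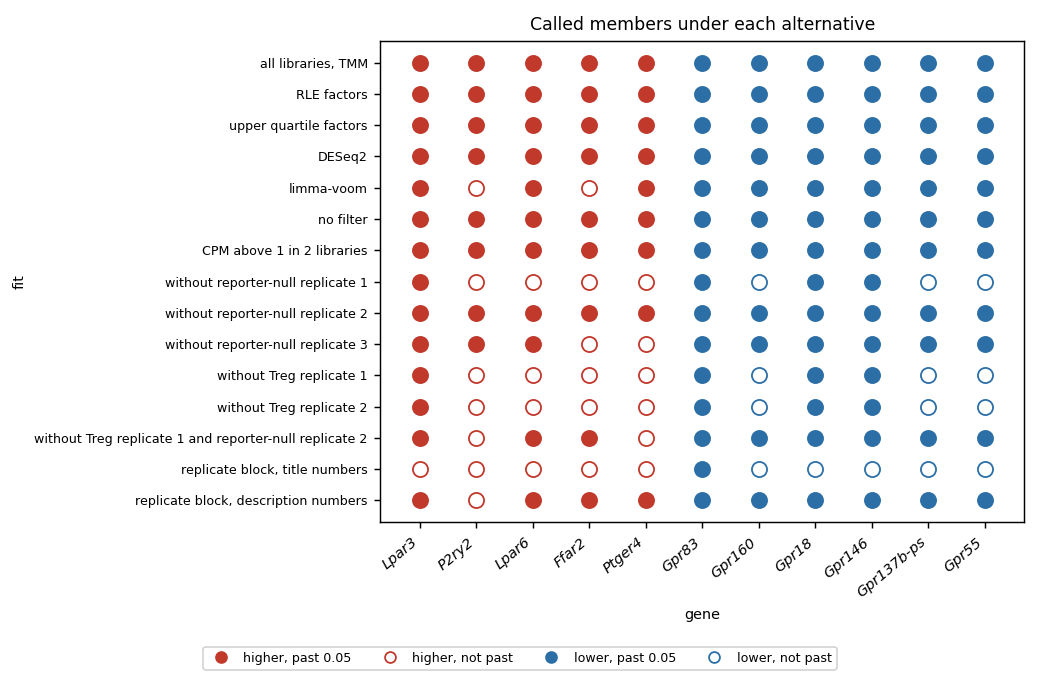
Each of the 11 called members (columns) under the fit with all libraries and 14 alternatives (rows), with red for a higher and blue for a lower value in reporter-null cells, filled where the adjusted p was under 0.05 and open where it was not. Gpr83 is filled in every row, Lpar3, Gpr18 and Gpr146 are open in the row of title numbers only, and the other 7 are open in 4 to 7 rows.

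Of the 46 members that were not tested 8 had no count in any library, and 10 held at least 10 counts in a group. Beside Ffar3 and P2ry13 these were Gpr1, Gpr22, Gpr82, Gpr141, Gpr152, Gpr173, Gpr176 and Ltb4r2. Gpr141 had 3, 14 and 3 counts in reporter-null libraries and 1 and 0 counts in Treg libraries. Gpr22, inside Cog5 on its opposite strand, had 9, 6 and 17 counts in reporter-null libraries and 6 and 1 counts in Treg libraries. Gpr1 had 1, 2 and 6 counts in reporter-null libraries and 7 and 8 counts in Treg libraries. The other 5 had 0 to 11 counts in a reporter-null library and 0 to 7 counts in a Treg library. At this depth 3 counts correspond to 0.134 to 0.163 CPM in a library, so lower levels of a gene without counts could not be detected.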

How the data were processed

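The members and gene lists were chosen with earlier results of these data known, so none is independent evidence. Per the labels' protocols, RNA was extracted with TRIzol, amplified with SMART-Seq v4, turned into KAPA Hyper Prep libraries and read on a HiSeq. The authors deposited raw counts, whole numbers for each gene symbol. The submitters' processing notes name DESeq, with no role. Aligner, build, annotation and strand setting were not given in the sources used here. Of 24421 rows, 4 named NA (0.0034% to 0.00492% of a library) were left out.

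Counts were tested in R 4.3.3 with edgeR 4.0.16 (filterByExpr with a minimum count of 10 and total of 15, TMM factors, robust quasi-likelihood F test, threshold 0.05), group as the only term. The SE was taken as the absolute log2 fold change over the root of F. The biological coefficient of variation (common) was 0.401. The alternatives tried were DESeq2 1.42.0, factors by RLE or upper quartile, limma-voom (limma 3.58.1), no filter, a CPM above 1 in 2 libraries, a threshold of 0.01, each library left out, replicate numbers as a block, and, added after seeing the data, both libraries rich in epithelial transcripts left out. Replicates differed by more than sampling noise (chi-square per degree of freedom 21.3 to 91.2). In simulated counts for this comparison (14164 genes) the test found 44% of genes changed by 1 on the log2 scale, 70% of those changed by 2, 54% by 3 and 80% by 4, and 14 of its 138 calls were false.

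Every called member, and every other tested member averaging at least 8 CPM in a group, was named. Listed genes were named when called. Exon lengths and overlaps came from GENCODE M21 and promoters and neighbours from RefSeq (both GRCm38). Some genes are not reported here.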

Additional observations from a re-analysis of the deposited data

How the results depend on the processing

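With all libraries and TMM factors, edgeR counted 5 members higher and 6 lower, and 577 genes higher and 668 lower over all tested genes. DESeq2 counted 10 and 11 members, and 1200 and 1123 genes. Limma-voom counted 3 members higher. At a threshold of 0.01 there were 1 member higher and 3 lower, and 208 genes higher and 281 lower. Leaving out 1 library gave 1 to 9 members higher and 3 to 9 lower, and 146 to 926 genes higher and 192 to 1109 lower. Leaving out Treg replicate 1 together with reporter-null replicate 2, an alternative added after seeing the data, gave 8 and 10 members, and 944 and 1208 genes. RLE factors, upper quartile factors and both other filters moved none of these counts by more than 1.5 times, and none of the 11 members changed sign in any alternative. With 1 Treg library left, that library is assumed to vary like the reporter-null libraries.

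Whether replicate numbers pair libraries, by title or by description, is not known, since no label says that a number marks an animal or day. Reporter-null replicate 2 and Treg replicate 1, the libraries rich in epithelial transcripts, both carry the number 2 in their descriptions. With title numbers as a block edgeR called 0 members higher and 1 lower (9 and 11 at an unadjusted p under 0.05), with 12 genes higher and 12 lower. With description numbers as a block 5 members were higher and 8 lower, with 719 and 680 genes, and 10 of the 11 members kept their call, all but P2ry2 (adjusted p = 0.0617). Reporter-null replicate 1, whose label joins 2 numbers, has no partner in that block. Deviations from the group mean correlated across genes by -0.511 between reporter-null replicate 1 and Treg replicate 1, 0.602 between reporter-null replicate 2 and Treg replicate 1, and 0.481 between reporter-null replicate 3 and Treg replicate 2. With 2 Treg libraries these deviations are exact opposites, so the other Treg library gives the same sizes with the sign turned, and the correlations settle neither numbering. The cause was not tested.

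Depth limits the low members: Lpar3, P2ry2, P2ry13 and Ffar3 had at most 3 counts over the Treg libraries.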
